A study of Mus musculus with 8 samples.

Results

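RAX-positive cells from activin-treated mouse embryonic stem (ES) cell cultures were compared with a culture that received the Wnt inhibitor alone. The comparison rested on 1 array a side, picked by the labels from 8 single-colour Agilent mouse expression arrays. The RAX-positive cells (Wi+Act RAX-positive) came from K/l-EB5, an ES cell line whose label gives a GFP reporter of Rax. They were turned towards neural fate in defined medium, received the Wnt inhibitor IWR-1-Endo (Wi) at 5 µM from day 3 and activin A at 10 ng/ml 12 h later, and were sorted by GFP at day 10 in vitro. The Wi control was E14Tg2A, another ES cell line, grown by the same scheme to day 10 with IWR-1-Endo at 5 µM and no activin. Its label names neither a reporter nor a sort. Both lines are given as male and of 129/Ola background. The other arrays held the RAX-negative cells of the activin culture, both sorted populations of a culture given SAG (an agonist of Smoothened, the Hedgehog transducer) at 100 nM in place of activin, and cortex, diencephalon with hypothalamus, and eye of E12.5 embryos. RNA of 3 sets of experiments was pooled for each group and 50 ng was labelled with Cy3. Each side therefore had n = 1, and no difference given here has a spread between cultures, a test or a p-value. Cell line, array slide, sorting and activin all differed between the 2 arrays, and their shares in any difference cannot be told apart.

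The eye field is the patch of the anterior neural plate from which both retinas form, and Rax, Six3, Six6, Lhx2 and Pax6 are its classical homeobox genes. The telencephalon arises beside it and the hypothalamus beneath it, and low Wnt activity favours all of these anterior fates. Activin and its relative Nodal bind pairs of serine/threonine kinase receptors, which phosphorylate Smad2 and Smad3. These join Smad4 and DNA-binding partners such as Foxh1 on target genes, many of which, like Lefty1, Lefty2 and Smad7, encode inhibitors of the same pathway.

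The promoters of 4 eye field and Activin/Nodal target genes are shown, to look for the letters that FOXH1 and SMAD proteins are known to bind. They are Six3 and Six6 of the eye field, and Gsc and Cer1, targets of Nodal signalling. Of these, Cer1 was not called higher or lower in the comparison below. Each sequence is the 250 bases before the gene start, 5′ to 3′ on the gene's strand, from the RefSeq table for GRCm38.p6. Capitals mark AATCCACA (FOXH1) and CAGAC (SMAD) on either strand. The motifs can share the letters CA where they meet, but no letter marked here belongs to both. They lie at chr17:85620584-85620833 (+) for Six3, chr12:72939632-72939881 (+) for Six6, chr12:104473237-104473486 (-) for Gsc and chr4:82885152-82885401 (-) for Cer1.
Six3: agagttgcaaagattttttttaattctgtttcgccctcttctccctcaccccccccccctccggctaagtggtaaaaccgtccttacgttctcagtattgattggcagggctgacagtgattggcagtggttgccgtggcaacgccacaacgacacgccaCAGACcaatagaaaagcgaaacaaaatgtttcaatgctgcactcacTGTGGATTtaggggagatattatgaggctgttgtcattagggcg
Six6: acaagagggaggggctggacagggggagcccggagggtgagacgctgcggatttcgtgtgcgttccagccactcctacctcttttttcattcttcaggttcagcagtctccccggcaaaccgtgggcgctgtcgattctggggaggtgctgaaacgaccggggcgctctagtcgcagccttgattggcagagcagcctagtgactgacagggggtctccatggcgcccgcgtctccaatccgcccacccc
Gsc: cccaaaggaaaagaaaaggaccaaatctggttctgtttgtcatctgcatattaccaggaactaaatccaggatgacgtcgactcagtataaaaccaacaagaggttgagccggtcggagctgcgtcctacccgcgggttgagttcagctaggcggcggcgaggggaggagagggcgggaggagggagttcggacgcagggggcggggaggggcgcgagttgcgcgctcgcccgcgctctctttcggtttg
Cer1: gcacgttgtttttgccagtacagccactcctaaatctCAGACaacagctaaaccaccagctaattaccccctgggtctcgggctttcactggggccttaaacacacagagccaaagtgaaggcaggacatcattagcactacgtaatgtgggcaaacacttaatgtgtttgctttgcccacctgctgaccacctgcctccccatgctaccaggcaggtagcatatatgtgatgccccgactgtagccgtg
Six3 held the FOXH1 letters on the opposite strand, TGTGGATT, from position -44 counted from the gene start, and CAGAC from position -90. Cer1 held CAGAC from position -213, and Six6 and Gsc held neither motif in this window. Of 38 Activin/Nodal target and eye field genes looked up, 21 had a promoter in the table outside the chromosome that is not shown here, with 32 promoters among them. The FOXH1 letters were in 1 of these promoters (3.1%), that of Six3 shown above, against 236 of 32851 promoters in the table (0.718%). The SMAD letters were in 14 (43.8%), against 13861 (42.2%) in the table.

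Levels are given as log2 of the processed signal relative to the 75th percentile of the same array, so that 0 is that percentile and each unit is 2-fold. A gene was detected if the brighter of its signals was well above background by the scanner software's flag, and it was called higher or lower where the difference, Wi+Act RAX-positive minus Wi control, reached 1 on the log2 scale. Where the dimmer signal was not well above background it was raised to the lowest well-measured signal of its array, and the fold is then a lower bound, written "at least". The scanner's own error model gave a median error of 0.20 on the log2 difference (1.15-fold) for genes well above background on both arrays, which covers the spot measurement only. Of 29511 detected genes, 7082 (24%) were called higher in RAX-positive cells and 4098 (13.9%) lower. Restricted to the 24116 genes that both arrays measured well above background, the counts were 4341 higher (18%) and 3617 lower (15%). These shares are the background against which each gene list is read. The median difference of all detected genes was 0.35 and depended on the scaling: it was 0.24 after median scaling, 0.22 after scaling on the probes well above background on both arrays, 0.16 after quantile scaling, 0.08 with normexp background followed by quantile scaling and 0.11 in the authors' deposited value table. Higher genes made up 63.3% of all calls, against 52.6% after quantile scaling, 42.7% with both normexp background and quantile scaling and 46.8% in the authors' deposited value table. Among the called genes named here, Aldh1a3, Smad2, Tgfbr1, Foxh1, Mab21l2, Cyp26c1, Prdm1, Cryab, Hmx2, Kiss1, Gnrh1, Notch3, Sall4, Smo and Cdkn2a fell under the threshold with normexp background and quantile scaling, in the authors' deposited value table, or in both. This list does not cover the other scalings, under which further calls close to the threshold changed.

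The arrays themselves differed. On the RAX-positive array 79.3% of spots were well above background, against 67.5% on the Wi control array. The spike-in controls gave a slope of 0.9, flagged as out of range by the scanner software, and a detection limit of 1.77 (log10) for RAX-positive cells, against 1.0, in range, and 0.81 for the Wi control. The Wi control was alone on its slide and the other 7 arrays shared another. Of 1353 olfactory and vomeronasal receptor genes, which sensory neurons of the nose express, 600 (44.3%) were well above background in RAX-positive cells, against 221 (16.3%) in the Wi control, and 11.8% to 24.7% on the other 6 arrays. Of the 632 receptor genes detected on either of the 2 arrays, 274 were called higher and 34 lower, with a median difference of 0.85. Calls also varied with level. Among genes whose brighter level was below -4, 37.2% were called higher and 4.74% lower, with a median difference of 0.75. At brighter levels of 2 and above, 16.5% were higher and 10.9% lower, with a median of 0.26. Dim genes were thus called higher more often than bright ones.

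**Figure D1:**
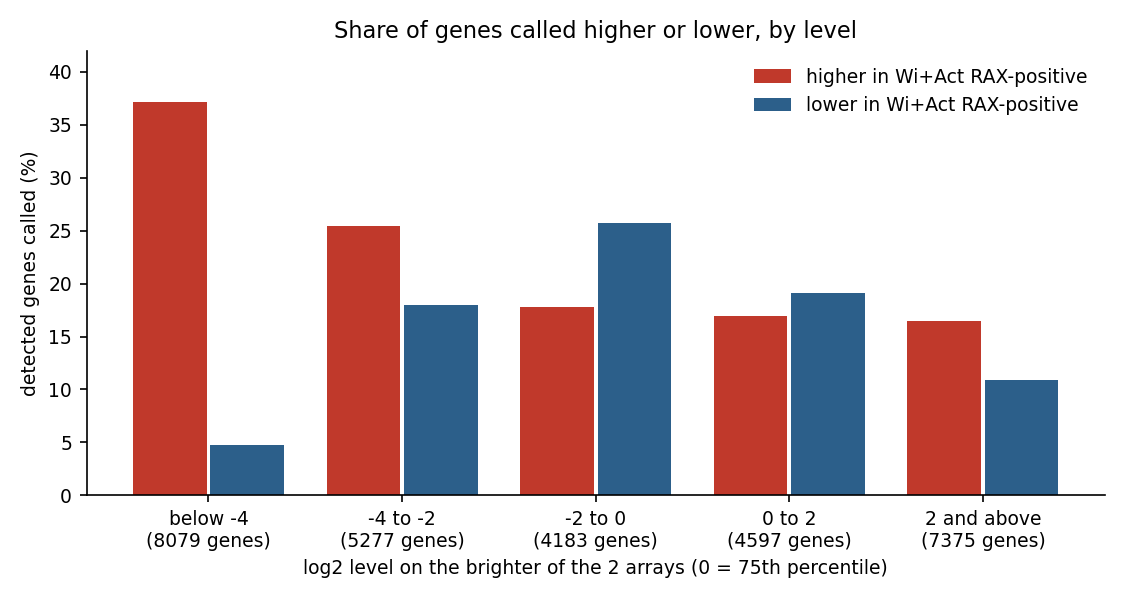
Share of detected genes called higher (red) or lower (blue) in Wi+Act RAX-positive cells than in the Wi control, in percent, by log2 level on the brighter array. Higher calls reach 37.2% of the genes below -4 and 16.5% of those at 2 and above, while lower calls peak at 25.7% between -2 and 0.

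Rax, the gene behind the sort, stood at a log2 level of 5.45 in RAX-positive cells, against -4.07 in the Wi control, a 736-fold difference. Among the genes ranked by the naming rule given below and measured well on both arrays, none had a larger upward difference. Both signals were well above background by the scanner software's flag. On the Wi control array 16.3% of the olfactory and vomeronasal receptor genes carried that flag too. Whether the control's low signal is Rax transcript was not tested. Because the sort used a reporter of this gene, the 736-fold value is given as a description only. The RAX-negative cells of the activin culture stood at 2.30, also above the Wi control.

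Of 19 detected eye field and retinal progenitor genes, 10 were called higher in RAX-positive cells and 3 lower, with a median difference of 1.20 against 0.35 for all detected genes. Rax, the gene used for the sort, is 1 of the 10. Six6, needed for retinal growth, stood at 2.15 in RAX-positive cells, against -8.32 and not well above background in the Wi control, at least 358-fold higher. Its probe lies at chr12:74045825-74045884 (mm9). Six3, which keeps the anterior neural plate free of Wnt1, stood at 3.07 in RAX-positive cells and -0.08 in the Wi control (8.84-fold). A second Six3 probe gave a larger log2 difference of 6.05, and the antisense transcript Six3os1 was 64.5-fold higher, at 5.19 against -0.83. Six3, Six6 and the antisense transcript thus stood above the control on every probe.

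Several regulators of early retinal identity showed the same direction. Tbx3, a T-box repressor of the eye field, stood at 3.88 in RAX-positive cells, against 0.03 in the Wi control (14.4-fold). Hmx1, a homeobox gene of the nasal side of the retina, stood at 0.59 against -3.88 (22.1-fold). Fzd5, a Wnt receptor of the optic vesicle, stood at -0.18 against -4.20 (16.2-fold). Lhx2, which carries the eye field through to the optic vesicle, was already high in the Wi control at 5.36 and reached 6.56 in RAX-positive cells, 2.30-fold higher. Aldh1a1, the retinoic acid enzyme of the dorsal retina, was 7.45-fold higher (-1.44 against -4.34), and Aldh1a3, its ventral counterpart, 2.63-fold higher (-4.09 against -5.48). With normexp background and quantile scaling the Aldh1a3 difference was 0.27.

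Some members of the same list did not differ by the rule of size or were lower. Pax6 stood at -0.01 in RAX-positive cells and 0.24 in the Wi control, and Otx2, the head organising homeobox gene, at 4.57 and 4.47. Ccnd1, Nr2e1 and Sfrp2, also uncalled, had log2 differences of 0.97, 0.94 and 0.66. Fgf15, a growth factor of retinal progenitors, was lower in RAX-positive cells, at 1.41 against 2.77 (2.57-fold lower). The related genes Mab21l1 and Mab21l2 were 3.28-fold and 2.33-fold lower. Of the genes used to check the label other than Rax, Six3, Six6 and Lhx2 were thus called higher, and Pax6 was not called. Rax, whose reporter was used for the sort, cannot check it.

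Activin/Nodal target genes, many of them feedback inhibitors, were called higher in 8 of 17 detected members and lower in 1, with a median difference of 0.98. Fst, follistatin, which binds and neutralises activin, stood at 3.66 in RAX-positive cells, against -0.18 in the Wi control (14.3-fold). Gsc, goosecoid, stood at 0.43 against -1.95 (5.21-fold). Lefty1, a secreted Nodal antagonist, stood at 2.27 against -0.02 (4.89-fold); its probe lies at chr1:182868137-182868196 (mm9). Pmepa1, which keeps Smad2 and Smad3 from their receptors, was 4.11-fold higher (1.08 against -0.95), and Smad7, the inhibitory Smad, 3.05-fold higher (1.08 against -0.53). Ltbp1, which anchors latent TGF-beta in the matrix, was 2.73-fold higher, and Tgif2, a Smad corepressor, 2.03-fold higher.

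Other members of that list did not follow. Lefty2, the close relative of Lefty1, stood at 0.45 in RAX-positive cells and 0.75 in the Wi control, and Nodal itself at -0.49 and 0.42. Cer1, a secreted Nodal and BMP antagonist, stood at -2.60 and -1.65. The corepressors Skil, Tgif1 and Ski had log2 differences of 0.98, 0.55 and -0.05, and the ubiquitin ligase Smurf2 0.44. Mixl1 and Bambi were not well above background on either array. Eomes was the member called lower, at -3.15 against 1.67 (28.2-fold), and is also a gene of cortical intermediate progenitors.

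Among 19 ligands, receptors and signal carriers of the pathway, 3 were called higher and 6 lower, with a median of -0.72. The 3 higher genes were close to the threshold: Smad2 was 2.31-fold higher (1.58 against 0.37), the type II receptor Acvr2b 2.24-fold (5.41 against 4.24) and the type I receptor Tgfbr1 2.12-fold (3.14 against 2.06). In the authors' deposited value table Smad2 and Tgfbr1 differed by 0.90 and 0.89. Inhbb, which encodes an activin subunit, was 81.6-fold lower in RAX-positive cells (-4.92 against 1.43). Cfc1, a Nodal coreceptor, was 29.4-fold lower (-5.03 against -0.16), and the type I receptor Acvr1c at least 7.5-fold lower. The Nodal partners Gdf3 and Gdf1 were 4.09-fold and 3.30-fold lower. Foxh1, the DNA-binding partner of Smad2, stood at -2.66 against -1.36 (2.47-fold lower), and differed by -0.84 on the log2 scale with normexp background and quantile scaling. Smad3, Smad4, Inhba, Acvr1b, Acvr2a, Tgfbr2, Tdgf1, Furin and Pcsk6 were not called. Each ligand and coreceptor on the list was thus either lower or not called.

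**Figure D2:**
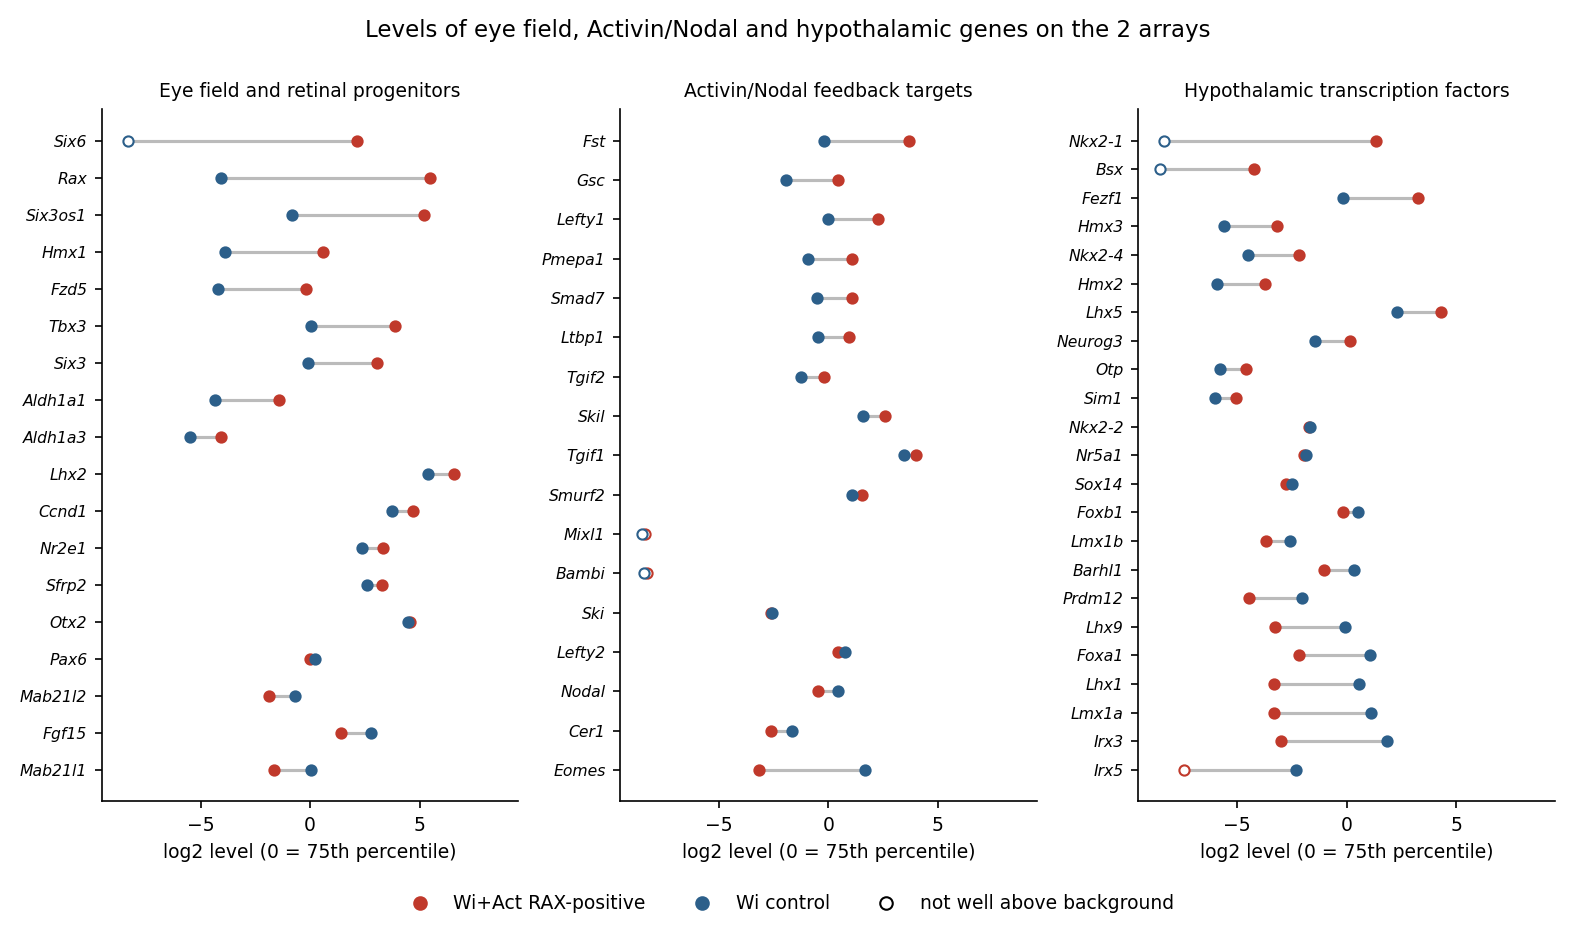
Log2 levels (0 is the array's 75th percentile) of members of 3 gene lists in Wi+Act RAX-positive cells (red) and the Wi control (blue), 1 array each, joined by a grey line; open points are not well above background. Rax, Six6 and Nkx2-1 span the widest distances, at 5.45 against -4.07, 2.15 against -8.32 and 1.34 against -8.33.

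Hypothalamic transcription factors went both ways: of 24 detected, 9 were higher and 10 lower, with a median of -0.17. Nkx2-1, the ventral hypothalamic determinant, stood at 1.34 in RAX-positive cells, against -8.33 and not well above background in the Wi control, at least 204-fold higher. Its genomic neighbour Sfta3-ps was at least 85.3-fold higher. Fezf1, a forebrain zinc finger gene, stood at 3.28 against -0.18 (11-fold), and Hmx3 and Nkx2-4, homeobox genes of the ventral diencephalon, were 5.43-fold and 4.95-fold higher from low levels. Hmx2 was 4.58-fold higher, at -3.72 against -5.92. In the other direction, Irx3, a gene of the posterior diencephalon and more caudal tissue, was 28.9-fold lower (-2.99 against 1.86). Lmx1a, a roof plate gene, was 21.3-fold lower (-3.31 against 1.10), Lhx1 14.7-fold, Irx5 at least 13.5-fold and Foxa1, a floor plate gene, 9.43-fold lower. The higher members thus included Nkx2 and Hmx genes, and the lower ones Irx and Foxa genes.

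Hypothalamic neuropeptide genes were lower in 7 of 16 and higher in 3, with a median of -0.78. Trh, thyrotropin-releasing hormone, was 15.3-fold lower in RAX-positive cells (0.41 against 4.35), somatostatin (Sst) 11.6-fold and neuropeptide Y (Npy) 9.45-fold lower. Galanin (Gal) was 3.66-fold higher, at 2.81 against 0.94. Gnrh1 and Kiss1 were called higher from levels below -4 on both arrays.

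Of 18 Hedgehog pathway genes, 2 were called higher and 8 lower, with a median of -0.15. Shh itself stood at -2.05 in RAX-positive cells, against -0.34 in the Wi control (3.28-fold lower). The coreceptor Boc was 9.61-fold lower (-1.49 against 1.77), Nkx6-1 3.71-fold and Gas1 3.03-fold lower. Dhh was 4.39-fold higher and Smo 2.14-fold higher. Nkx2-1, a Hedgehog target of the ventral forebrain, was thus higher in these cells while Shh was lower.

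Dorsal telencephalic genes showed one of the largest shifts: 13 of 20 were called lower and 2 higher, with a median of -2.93. Neurod6 stood at -6.49 in RAX-positive cells, not well above background, against 2.37 in the Wi control, at least 346-fold lower. Neurod2, which like Neurod6 is a factor of cortical excitatory neurons, stood at -4.58 against 3.26 (229-fold). Emx1, a cortical progenitor gene, stood at -4.39 against 2.22 (97.8-fold). Tbr1, a deep-layer neuron factor, stood at -1.84 against 4.49 (80.1-fold), and Neurog2, the cortical proneural gene, at -2.57 against 3.05 (49.2-fold). Not all genes of the list were low. Lhx5 and the corepressor Tle4 were 3.96-fold and 2.53-fold higher, and Dmrta2 stood at 2.01 and 1.86. A bulk array cannot tell fewer cells of a type from less RNA per cell, here or in the comparisons that follow.

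The ventral telencephalic list held 2 higher and 6 lower genes of 16, with a median of -0.38. Gsx2 was 8.91-fold lower, and the GABA enzyme Gad1 5.42-fold lower. Gsx1 and Isl1 were 2.55-fold and 2.10-fold higher, and after median scaling 1 gene of this list was called higher. Genes of midbrain, hindbrain and spinal cord were lower in 11 of 19 and higher in 3, with a median of -1.67. En2, of the midbrain-hindbrain region, was 27.8-fold, Pax3 11.2-fold and Pax7 at least 6.08-fold lower. Egr2, a gene of hindbrain rhombomeres and also an immediate early gene, was 21.3-fold higher, at 1.43 against -2.99. No Hox gene on the list stood above -4.59 in RAX-positive cells, the level of Hoxc6, which was 5.49-fold lower than in the Wi control (-2.13).

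Neuronal genes were lower almost throughout: 17 of 20 were called lower and none higher, with a median of -2.63. Summed over the list, the signal in units of each array's 75th percentile was 40.2 in RAX-positive cells and 319 in the Wi control. Gap43, a growth cone protein, stood at 0.17 in RAX-positive cells, against 5.42 in the Wi control (38.2-fold). Rbfox3, the NeuN antigen of mature neurons, stood at -0.92 against 3.64 (23.5-fold), and the neurofilament gene Nefl at -1.11 against 3.32 (21.6-fold). Ina, another intermediate filament gene, was 19.6-fold lower. Nrn1 was 37.0-fold lower by its brighter probe, whereas its other probe gave a log2 difference of 0.31. No member of the list was undetected in RAX-positive cells. Transmitter genes were lower in 7 of 14 and higher in 3: the vesicular glutamate transporters Slc17a7 and Slc17a6 were at least 18.2-fold and 16.6-fold lower. The part of the control's neurons in the dorsal telencephalic difference was not tested.

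**Figure D3:**
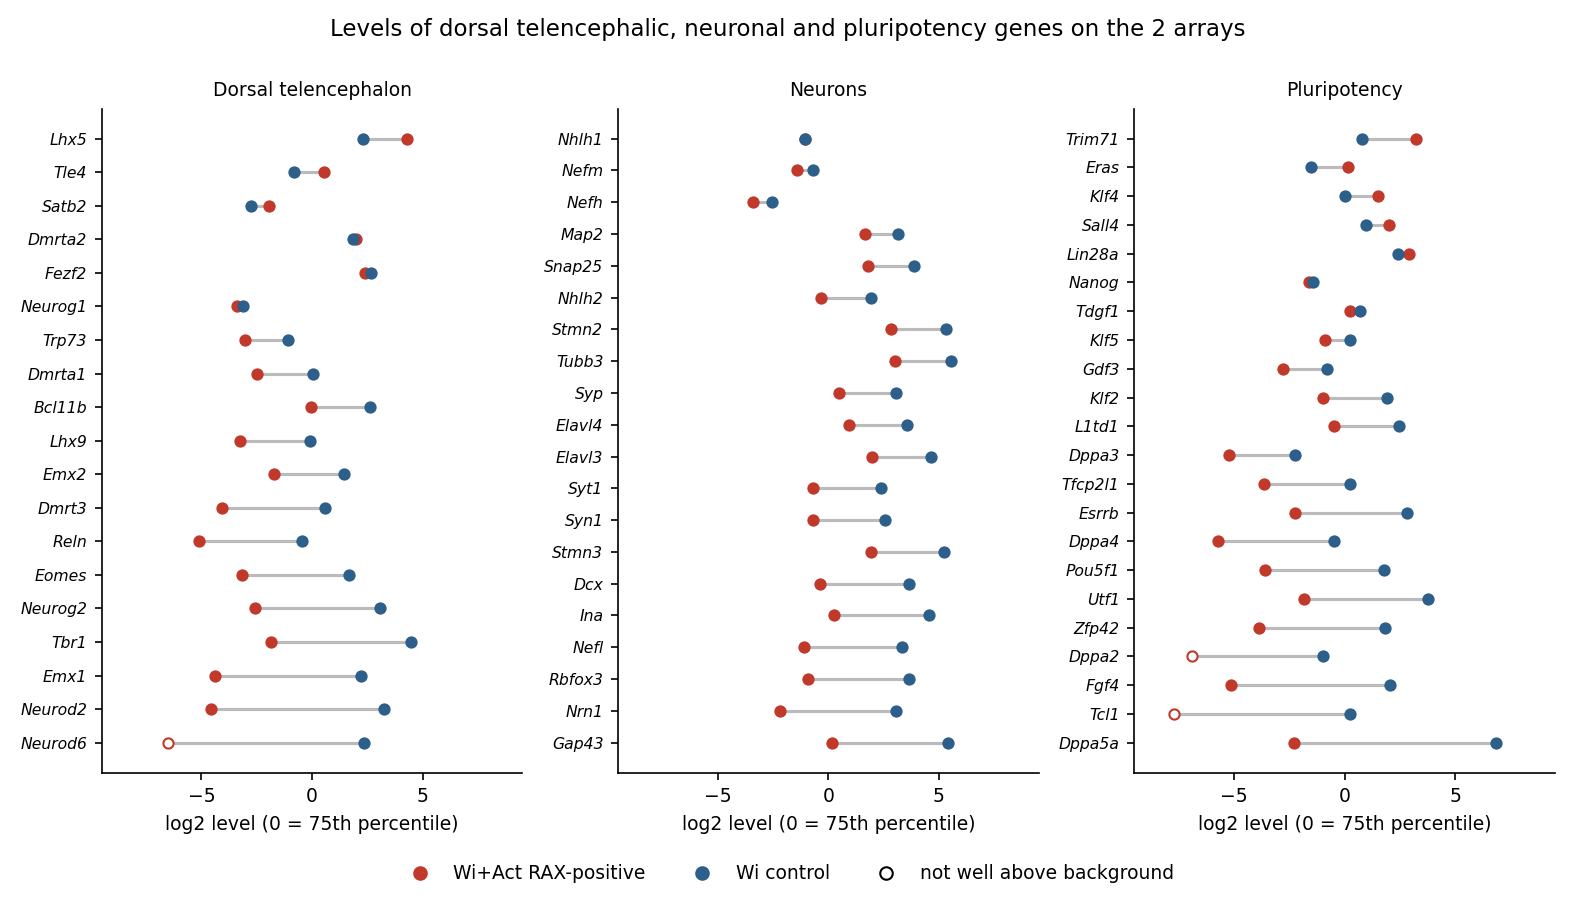
Log2 levels (0 is the array's 75th percentile) of dorsal telencephalic, neuronal and pluripotency genes in Wi+Act RAX-positive cells (red) and the Wi control (blue), 1 array each; open points are not well above background. Nearly all neuronal genes lie left in RAX-positive cells, as Gap43 at 0.17 against 5.42 in the Wi control.

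Neural progenitor genes did not shift as a list: 6 of 18 were higher and 4 lower, with a median of 0.09. Zbtb16 was 8.15-fold higher (3.15 against 0.12), the Notch effector Hes1 4.72-fold (1.67 against -0.57) and the early neural gene Sox1 2.44-fold (3.84 against 2.55). Fabp7, the lipid-binding protein of radial glia, stood at 0.67 against 7.11 (86.7-fold lower), and the radial glial glutamate transporter Slc1a3 at -0.62 against 3.32 (15.3-fold lower). Ptprz1 and Sox9 were 3.43-fold and 2.24-fold lower. Of 11 glial genes, 5 were lower and none higher, led by Aldh1l1 (12.8-fold), whose other probe gave -0.72.

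Cell cycle genes were called higher in 9 of 18 and lower in 1, with a median of 0.95 and a summed signal of 611 in RAX-positive cells against 294 in the Wi control. The higher calls fell to 6 of 18 after median scaling, and to 4 of 18 after quantile scaling, with normexp background and quantile scaling, and in the authors' deposited value table. Over all genes, 6174 of 28922 were called higher after quantile scaling. The replication helicase genes Mcm5 and Mcm6 were 3.83-fold (5.19 against 3.25) and 3.17-fold higher. Mki67, the Ki-67 antigen of cycling cells, was 2.86-fold higher (5.98 against 4.47), and Ccne1, cyclin E, 2.71-fold. Aurkb was 3.38-fold lower. Of 10 D cyclins and cyclin-dependent kinase inhibitors, 4 were lower and none higher. All 4 were inhibitors: Cdkn1b was 3.26-fold (2.54 against 4.24), Cdkn2b 3.04-fold, Cdkn2c 2.82-fold and Cdkn2a 2.10-fold lower. Notch pathway genes were higher in 3 of 15 and lower in none: Hey2 was 3.29-fold, Maml1 2.76-fold and Notch3 2.53-fold higher.

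**Figure D4:**
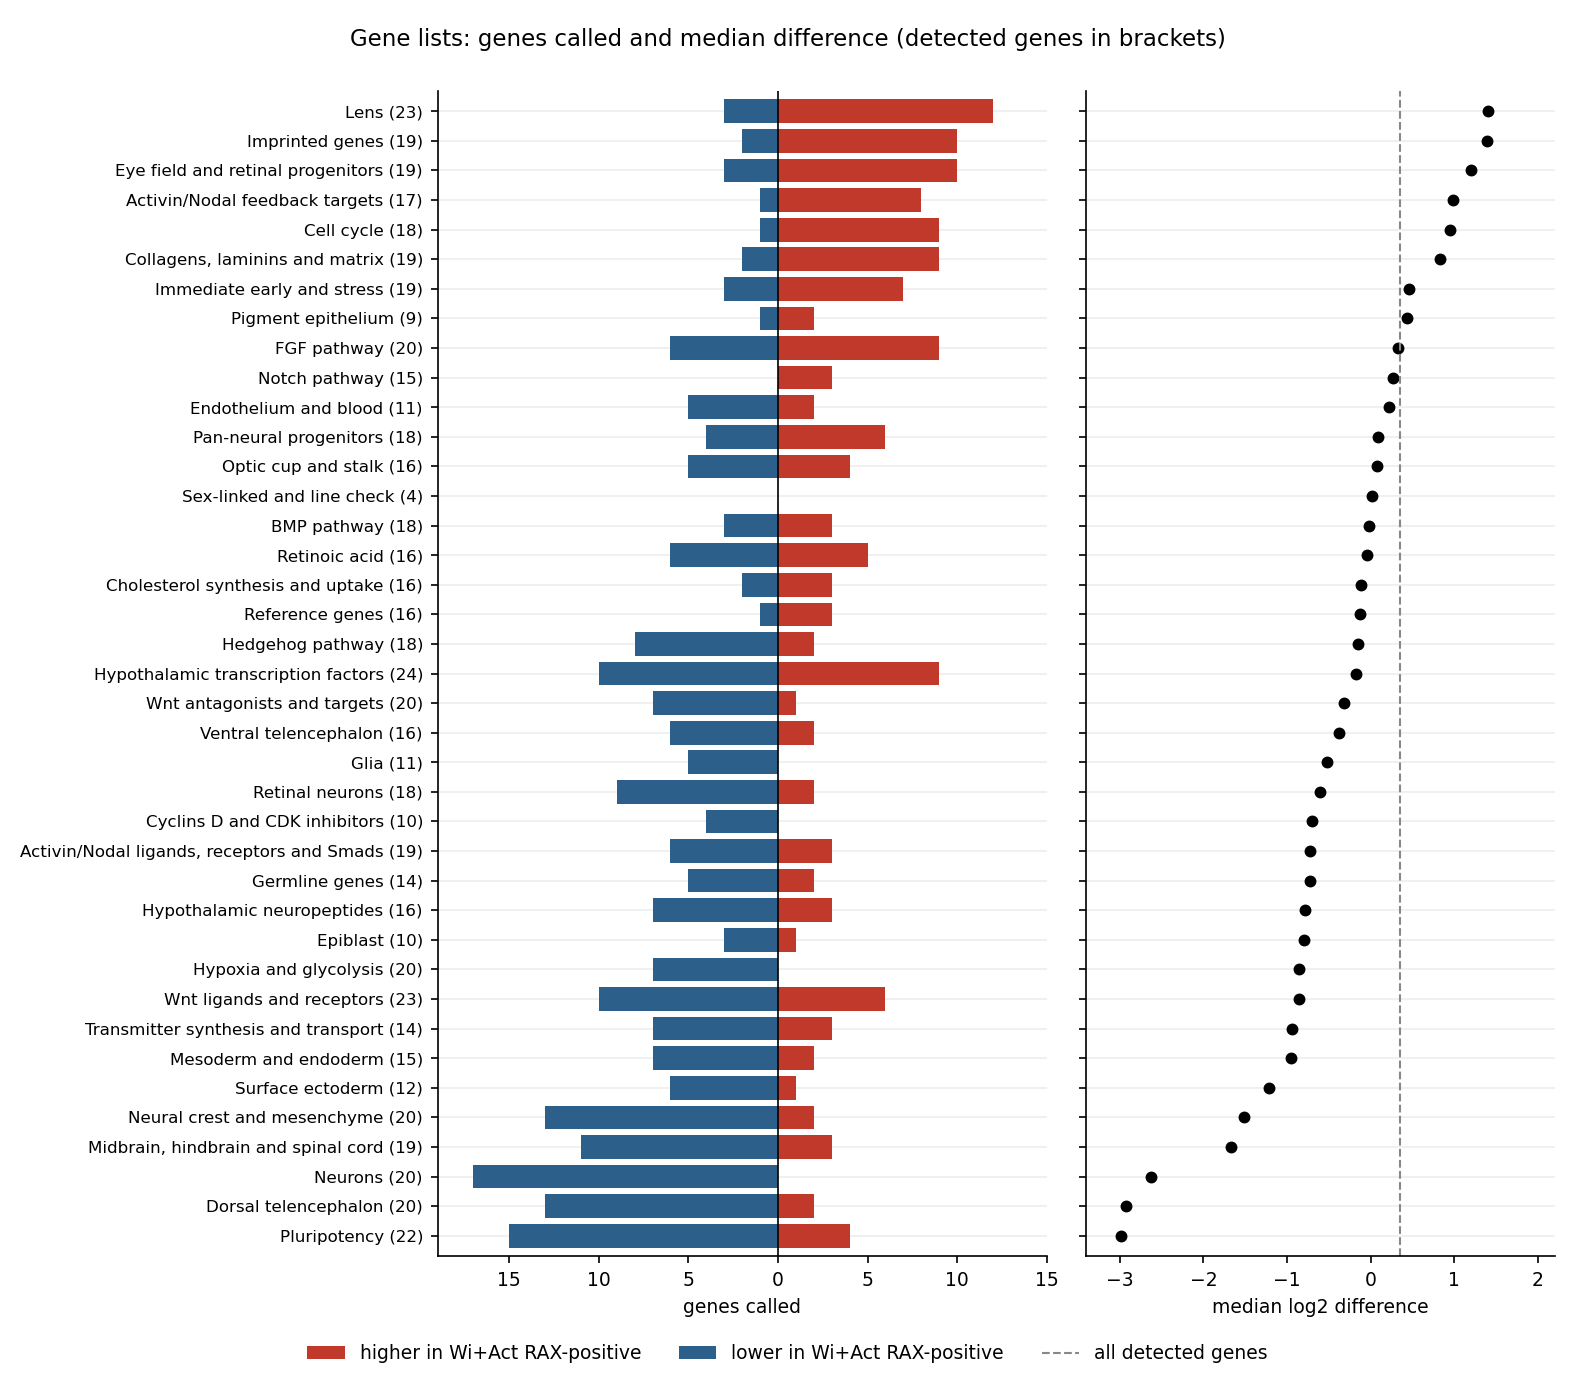
Left, number of members of each of 39 gene lists called higher (red) or lower (blue) in Wi+Act RAX-positive cells than in the Wi control, with detected members in brackets. Right, median log2 difference of each list, with the median of all detected genes (0.35) dashed; lens, imprinted and eye field lists lie at 1.40, 1.39 and 1.20, and pluripotency and dorsal telencephalon at -2.98 and -2.93.

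Pluripotency genes formed the list with the lowest median, -2.98: 15 of 22 were called lower and 4 higher. The summed signal was 29.4 in RAX-positive cells and 175 in the Wi control. Dppa5a, an ES cell RNA-binding protein, stood at -2.26 in RAX-positive cells, against 6.85 in the Wi control (552-fold lower); its probe lies at chr9:78214866-78214925 (mm9). Fgf4, the ES cell growth factor, stood at -5.13 against 2.04 (145-fold), and Zfp42 (Rex1) at -3.87 against 1.82 (51.7-fold). Utf1 was 49.3-fold lower and Tcl1 at least 78.8-fold lower. Pou5f1 (Oct4), named after its values were seen, stood at -3.60 against 1.80 (42.3-fold). Transcripts typical of undifferentiated ES cells were thus measured at day 10 in the Wi control and were low in the activin RAX-positive cells. In the RAX-negative cells of the same culture Dppa5a and Fgf4 stood at 4.12 and 0.81. They stood at -2.6 and -6.0 in SAG RAX-positive cells, where Fgf4 was not well above background, and at 1.39 and -1.86 in SAG RAX-negative cells. The 4 higher members were Trim71 (5.53-fold), an RNA-binding protein gene also active in early neural tissue, the Ras relative Eras (3.14-fold), Klf4 (2.79-fold) and Sall4 (2.03-fold). Germline genes were lower in 5 of 14 and higher in 2. Sycp3 and Mael, meiotic genes, were 57.8-fold and at least 63.1-fold lower. Their list rests on few well-measured genes, and over the 4 well above background on both arrays its median less that of all such genes was 0.19.

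The epiblast list gave 1 higher and 3 lower genes of 10. Its higher member was Hesx1, a homeobox repressor of the anterior neural plate, at 2.57 in RAX-positive cells against -2.61 in the Wi control (36.4-fold). Foxd3 was at least 7.27-fold and Fgf5 3.31-fold lower. Of 15 detected mesoderm and endoderm genes, 7 were lower and 2 higher, with a summed signal of 4.13 against 13.6. T (Brachyury) stood at -5.07 against 1.18 (76.0-fold lower) and Sox17, an endoderm gene, at -5.55 against -1.52 (16.3-fold lower). Gsc, which is also on that list, was higher, while Mixl1, Mesp1 and Afp were not well above background on either array. The part of ES-like and germ layer transcripts of the control in these differences was not tested.

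Neural crest and mesenchyme genes were lower in 13 of 20 and higher in 2, with summed signals of 12.2 and 13.5. Tfap2b was at least 144-fold, Dcn 13.1-fold and Col3a1 11.6-fold lower. Acta2, smooth muscle actin, and Snai2 were 4.77-fold and 4.66-fold higher. Surface ectoderm genes were lower in 6 of 12 and higher in 1. Tfap2c stood at -3.91 against 3.18 (136-fold lower), and Cdh1, E-cadherin, at -3.09 against 1.14 (18.8-fold lower). Tfap2c and Cdh1 are expressed by ES cells too. Grhl3 was 6.01-fold higher. Endothelial and blood genes were lower in 5 of 11 and higher in 2, led by Cdh5 (at least 5.60-fold lower).

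FGF pathway genes had 9 higher and 6 lower members of 20, with a median of 0.33. The called ligands went both ways. Fgf18 stood at 2.53 in RAX-positive cells, against -1.5 in the Wi control (16.3-fold), Fgf10 at -0.36 against -4.30 (15.4-fold) and Fgf8 at 1.39 against -1.41 (6.99-fold). Fgf9 was 4.71-fold and Fgf17 at least 3.01-fold higher. Fgf15 and Fgf13 were 2.57-fold and 2.21-fold lower. The feedback inhibitor Il17rd (Sef) was 6.63-fold higher, at 4.10 against 1.37. Etv4, an ETS target, was 4.97-fold lower and Spry4 3.85-fold lower. Fgfr3 was 8.61-fold lower by its brightest probe, but its 3 probes ranged from -3.11 to 2.72. The pathway's feedback and target genes thus went both ways.

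BMP pathway genes were balanced, with 3 higher and 3 lower of 18. Grem1, gremlin, a secreted BMP antagonist, had the second largest upward difference among the ranked genes measured well on both arrays. It stood at 3.03 in RAX-positive cells, against -5.52 in the Wi control (375-fold), with its probe at chr2:113589227-113589286 (mm9). Id3, a BMP target, was 5.12-fold higher (3.46 against 1.11), and Smad6, an inhibitory Smad, 4.18-fold. Bmp2 and the target Msx1 were 7.35-fold and 4.64-fold lower. Grem1 and Id3 were thus higher and Msx1 lower.

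Wnt antagonists and targets were lower in 7 of 20 and higher in 1, with a median of -0.32, although both cultures received the Wnt inhibitor. Apcdd1, a membrane Wnt inhibitor and target, stood at -3.55 against 1.28 (28.5-fold lower). Wif1 was at least 19.2-fold, the target transcription factor Sp5 6.89-fold and Axin2, the usual reporter of Wnt activity, 6.75-fold lower (-3.22 against -0.47). The second Axin2 probe gave -0.32. Frzb, a secreted antagonist, was 8.59-fold higher. Of 23 detected ligands and receptors, 6 were higher and 10 lower. Wnt8b, a ligand of the cortical hem, stood at -4.31 against 1.35 (50.5-fold lower), and Wnt7a, Fzd10 and Fzd9 were 16.1-fold, 9.70-fold and 5.31-fold lower. Wnt5b, which signals outside the beta-catenin route, stood at 3.30 against -0.28 (12.0-fold higher), and Fzd6, Fzd4 and Fzd3 were 4.40-fold, 4.33-fold and 2.83-fold higher. Ligands and receptors both went in both directions.

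Retinoic acid genes were higher in 5 of 16 and lower in 6. The binding protein Crabp2 and the retinol receptor Stra6 were 2.47-fold and 2.30-fold higher, beside Aldh1a1 and Aldh1a3. The degrading enzymes Cyp26a1 and Cyp26b1 were 11.5-fold and 9.24-fold lower. Dhrs3, which lowers retinaldehyde, stood at -4.24 against 1.13 (41.3-fold lower). The third of these degrading enzymes, Cyp26c1, was at least 2.19-fold higher, from -5.21 against -8.29 and not well above background in the Wi control.

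Genes that divide the optic vesicle into stalk and cup were split, with 4 higher and 5 lower of 16 and a median of 0.08. Vax1, the optic stalk homeobox gene, stood at 1.59 in RAX-positive cells, against -4.57 in the Wi control (71.6-fold). Foxd1, of the temporal retina, stood at 1.21 against -2.0 (9.23-fold), and Pax2, of the stalk, at -2.73 against -5.30 (5.93-fold). Vax2, of the ventral retina, was lower, at 1.89 against 3.19 (2.46-fold), as were the ephrins Efnb1 (2.86-fold) and Efnb2 (2.01-fold). Foxd2 was 3.71-fold lower. Tbx5 of the dorsal retina stood at -4.01 and -4.49, and Tbx2 at -5.38 and -5.12.

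Genes of retinal neurons were lower in 9 and higher in 2 of 18 detected, with a median of -0.61 and summed signals of 5.83 and 9.16. Pou4f2, of retinal ganglion cells, was at least 22.2-fold lower, Sncg 13.5-fold and Neurod1 6.69-fold lower. Isl1 and Prdm1 were 2.10-fold and 2.01-fold higher, but after median scaling no gene of this list was called higher. The photoreceptor gene Crx was not well above background on either array. Of 9 detected pigment epithelium genes, 2 were higher and 1 lower. Dct, a melanin enzyme, stood at -1.87 in RAX-positive cells, against -7.31 and not well above background in the Wi control (at least 22.2-fold higher), and Rlbp1 was 12.3-fold lower. Their summed signal was 1.54 in RAX-positive cells and 1.68 in the Wi control.

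Lens genes were called higher in 12 of 23 and lower in 3, with a median of 1.40. Over the 18 well above background on both arrays the median was 0.79, with 8 higher. It was 0.52, with 9 of 23 higher, in the authors' deposited value table, and 0.32, with 7 higher, with normexp background and quantile scaling. Crybb1, a beta-crystallin, stood at -0.65 in RAX-positive cells, against -6.88 and not well above background in the Wi control, at least 51.6-fold higher. The gamma-crystallin Cryge stood at -1.31 against -5.80 (22.5-fold) and Mip, the lens aquaporin, at -2.55 against -6.41 (at least 13.8-fold). Crygf and Cryba1 were 6.15-fold and 6.09-fold higher. Bfsp2, a lens filament gene, Cryba4 and Cryab were 5.84-fold, 4.61-fold and 2.27-fold lower. The summed lens signal was 11.1 in RAX-positive cells and 4.19 in the Wi control. On the brighter array most crystallins lay below -2, in the range where 25.4% to 37.2% of all genes were called higher and where the receptor genes were raised as well. Their part in the lens difference was not tested. Crystallins are also close paralogs, so that probes may share targets.

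Imprinted genes were higher in 10 of 19 and lower in 2, with a median of 1.39 and summed signals of 696 in RAX-positive cells and 127 in the Wi control. Plagl1 (Zac1), a zinc finger gene expressed from the paternal copy, stood at 6.30 against -0.62 (122-fold); its 4 probes ranged from 0.42 to 7.20. Nnat, neuronatin, stood at 6.76 against 1.56 (36.6-fold), and its probes gave log2 differences of 5.19 and 5.75. Mest and Dlk1 stood at 7.40 against 3.83 (11.9-fold) and 7.21 against 3.83 (10.4-fold). H19 was 34.7-fold higher by its brightest probe, but its 7 probes ranged from 0.18 to 5.12. Igf2, its neighbour, was 5.61-fold lower and Phlda2 4.00-fold lower. Peg13, also imprinted, was 53.2-fold higher (1.23 against -4.50).

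Immediate early and stress genes were higher in 7 of 19 and lower in 3. Fosb stood at 2.68 in RAX-positive cells, against -2.37 in the Wi control (32.9-fold), Fos at 4.38 against 0.87 (11.4-fold) and Egr1 at 5.09 against 1.89 (9.22-fold). These transcription factor genes respond quickly to growth factors and other stimuli. Sorting, activin and the other differences between the arrays cannot be told apart in them. The small heat shock gene Hspb1 was 12.7-fold lower and Ier3 5.94-fold lower. Hypoxia and glycolysis genes were lower in 7 of 20 and higher in none, with a median of -0.86. Ndrg1 was 12.0-fold, adrenomedullin (Adm) 3.80-fold, Vegfa 3.1-fold (3.23 against 4.86) and Pfkp 3.02-fold lower.

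Matrix genes were higher in 9 of 19 and lower in 2, with a median of 0.83. Col2a1, a collagen of cartilage and of neuroepithelium, stood at 5.93 against 2.67 (9.58-fold). Perlecan (Hspg2), Col18a1, Lamb1 and fibronectin (Fn1) were 4.10-fold, 2.89-fold, 2.87-fold and 2.79-fold higher. Cholesterol genes were higher in 3 and lower in 2 of 16, and reference genes higher in 3 and lower in 1 of 16, with a median of -0.13. Gusb was the reference gene with the largest difference, 3.09-fold higher, and Gapdh stood at 7.77 and 8.68.

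Sex-linked transcripts were looked at because both lines are labelled male. The Y-linked genes Eif2s3y and Ddx3y stood at 2.80 and -0.47 in RAX-positive cells, against 2.36 and -0.07 in the Wi control, and Xist was not well above background on either array. Kdm5d was below background on both, and Uty and Hprt were not called. None of the 4 detected genes of this check was called.

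The remaining genes named by rank were less tied to a list. The ranks left out genes without a RefSeq symbol and numbered clone, Rik, Gm and LOC names. They also left out genes whose call changed in the authors' deposited value table or with normexp background and quantile scaling. Among the 10 largest differences of well-measured genes, Dnah10, an axonemal dynein, was 64.2-fold higher (0.27 against -5.73), Me3, a mitochondrial malic enzyme, 52.3-fold, Clec18a 44.9-fold and Mamdc2 44.3-fold. The 3 Dnah10 probes ranged from 1.89 to 6.00. Fli1, an ETS factor, was at least 56.3-fold higher, at -0.52 against -7.17. Among the 10 lowest, Slc14a2, a urea transporter, was 211-fold lower (-3.57 against 4.15), Patl2 162-fold, the synapsin gene Syn2 144-fold and Tdh, the threonine dehydrogenase of mouse ES cells, 99.2-fold (-3.04 against 3.59). Tnfsf10 stood at -8.10 in RAX-positive cells, not well above background, against 2.64 in the Wi control (at least 415-fold lower). Vtn, vitronectin, and Pla1a were at least 192-fold and at least 170-fold lower. Of these 30 genes, 11 had several probes, and in 6 of the 11 the probes lay more than 2 log2 units apart. The largest decreases thus held genes of neurons (Neurod2, Neurod6, Syn2) and of ES cells (Dppa5a, Fgf4, Tdh) side by side.

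The other sorted populations were set against the same Wi control array, so that the comparisons share it and their values are only given side by side. Rax had log2 differences from the Wi control of 9.52 in activin RAX-positive, 6.37 in activin RAX-negative, 9.56 in SAG RAX-positive and 7.16 in SAG RAX-negative cells. Six6, which was not well above background in the control, had at least 8.48, 4.78, 7.52 and 5.21 in the same order, all lower bounds. Rax and Six6 were thus above the control in both RAX-negative fractions too, while Pax6 was below it there. Lefty1 had 2.29 and 5.71 in the RAX-positive and RAX-negative activin cells, and -6.07 and -4.01 in the RAX-positive and RAX-negative SAG cells, of which -6.07 is a bound because the SAG RAX-positive signal was not well above background. Gsc had 2.38, 5.42, -2.07 and -1.45. Fst (3.84, 2.89, 0.33 and -0.28), Grem1 (8.55, 5.81, 1.65 and 0.52) and Hesx1 (5.19, 5.61, -3.02 and -2.77) were likewise above the control in both activin populations. Hmx1 had 4.46 in activin RAX-positive cells, and 0.31, -0.52 and -0.01 in the other populations.

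Nkx2-1 was above the control in all 4 populations, by at least 7.67, 5.69, 11.16 and 10.64, all lower bounds, and highest after SAG. Shh had -1.71 and 0.07 after activin and 2.89 and 2.90 after SAG. Pax6 had -0.25 in activin RAX-positive cells, -2.81 in activin RAX-negative cells and -5.92 and -5.58 in the SAG populations. Emx1 was below the control in all 4 (-6.61, -7.77, -8.27 and -7.71, the last 3 being bounds), as was Tbr1 (-6.32, -6.42, -6.73 and -6.31). Pou5f1 had -5.40 in activin RAX-positive, 2.06 in activin RAX-negative, -6.85 in SAG RAX-positive and -5.63 in SAG RAX-negative cells. Emx1 and Tbr1 were thus below the control in all 4 K/l-EB5 populations, with and without activin, where line and slide also differ from the control and cannot be told apart from treatment.

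**Figure D5:**
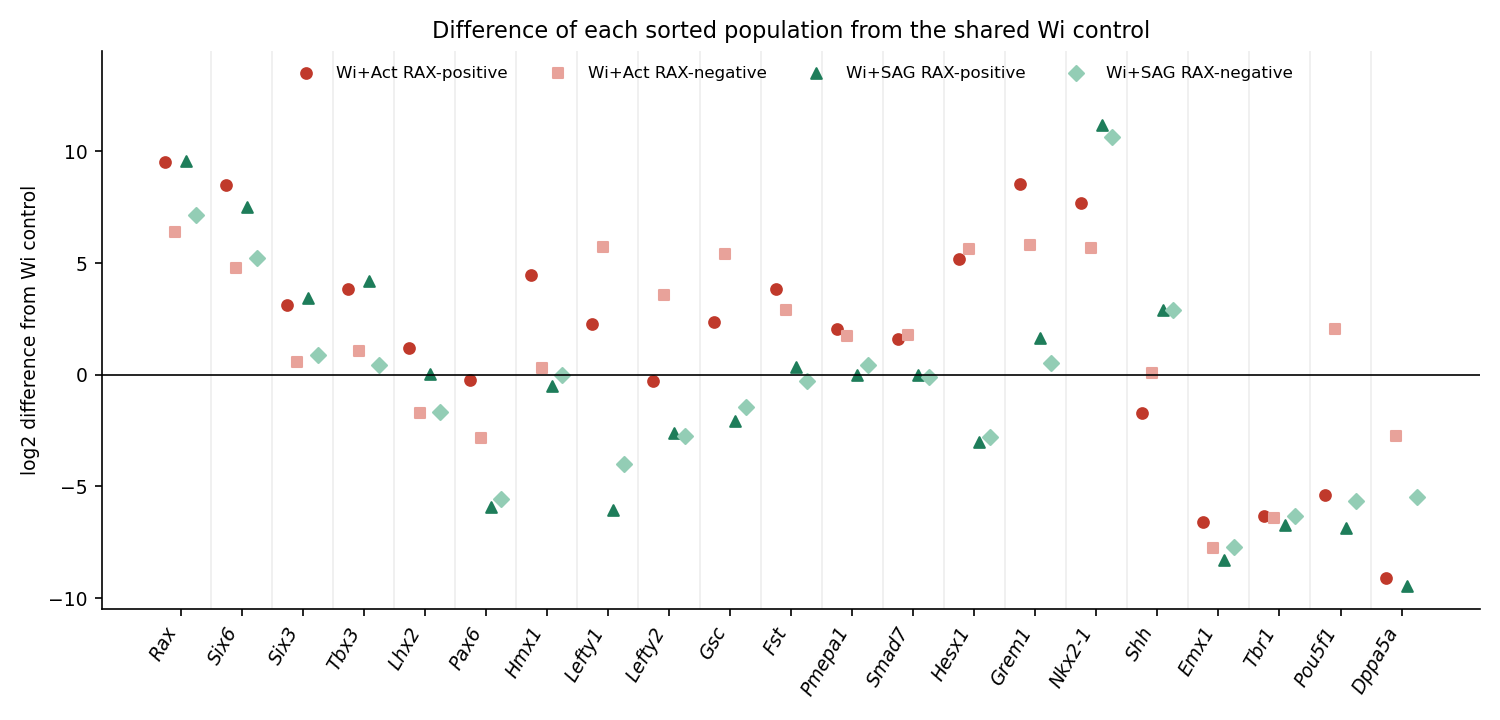
Log2 difference from the shared Wi control array for the genes named on the axis in the 4 sorted populations (1 array each); where a gene was not well above background in the dimmer array the point is a bound. Rax lies at 9.52, 6.37, 9.56 and 7.16, Lefty1 is above 0 in both activin populations (2.29 and 5.71) and below 0 in both SAG populations (-6.07 and -4.01), and Emx1 is below -6 in all 4.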

How the data were processed

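Total RNA of each group was labelled with 1 dye and hybridised to 1 Agilent mouse array. The deposited intensities are the scanner software's processed signals, background-subtracted and detrended within each array, per the file headers (Agilent Feature Extraction 10.7.3.1, mm9 probe positions). The submitters' processing notes name version 9.1 and limma. The deposited log2 value table was normalized between arrays by the authors, and its background step is not given in the sources used here. Its column medians were 6.39 for Wi+Act RAX-positive and 6.37 for Wi control, and the columns correlated with normexp values at 0.99 and 0.989 across probes. The scanner's flags are 0 or 1, as deposited.

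From the 62976 spots of each array, 3671 controls and outlier spots (160 on the RAX-positive array and 296 on the Wi control array) were left out, and repeat spots of a probe were averaged. Repeat spots had a standard deviation of 0.067 and 0.081 (log2) on these arrays, and no spot was saturated. Of 55419 probes used, 28254 were named through RefSeq and 27165 by the array file, for 34634 genes. Where several probes named 1 gene, the brightest on average across all 8 arrays stood for it. The lowest well-measured log2 level was -6.06 for RAX-positive cells and -6.34 for the Wi control. Depth is not defined for arrays, and 1 array a side limits the precision.

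No test was run. Genes were named by rank (10 in each direction among genes measured on both arrays and 5 in each direction among bounds, with the same call in the value table and with normexp at offset 50 followed by quantile scaling), as members of the Activin/Nodal, eye field and optic lists, as up to 5 members in each direction of every other list, or as checks. The ranks left out genes without a RefSeq symbol and numbered clone, Rik, Gm and LOC names. The few genes outside the rule, such as Pou5f1, were named after their values were seen. The members and the 39 lists (642 genes, 638 on the array) were chosen with earlier results of these data known. Results for a few genes are not reported here. The counting step was tested on simulated data. Alternatives changed the scaling, background, filter, probe choice, threshold and floor. Analyses used Python 3.11.15, numpy 2.4.6, pandas 2.3.3, R 4.3.3 and limma 3.58.1.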

Additional observations from a re-analysis of the deposited data

How the results depend on the processing

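Counts of calls depended on how dim signals were treated. Against 7082 of 29511 genes higher, 2297 were found with normexp background and quantile scaling and 3734 in the authors' deposited value table. There were 4341 when both arrays had to be well above background, and 10677 of 34634 with neither a filter nor a floor on dim probes. There were 1993 when the brighter array had to reach its 75th percentile, and 1280 at a log2 difference of at least 2. Against 4098 genes lower, the same settings gave 3077, 4241, 3617, 4488, 1686 and 1596 in that order. The filters test fewer genes and the stricter threshold calls fewer, both by construction. The normexp setting adds an offset of 50 to each signal, which by construction shrinks the log2 differences of dim genes. How much each step contributed was not tested. Less the median of all detected genes, the Activin/Nodal target list had a median of 0.63, against 0.16 with neither filter nor floor and 1.22 at the 75th percentile filter. The dorsal telencephalic list moved to -2.63 with normexp and quantile scaling and -2.86 with both arrays well above background, against -3.28, and the pluripotency list to -2.92 with normexp and quantile scaling, against -3.33. The germline list turned to 0.19 over 4 genes with both arrays well above background. Averaging all probes of a gene turned Rbpms to 0.22, Prdm12 to 0.88, Hcrt to 0.44, Gfap to 0.10 and Trp63 to 0.08. Of 372 called genes among all list members and the ranked genes, 355 kept their call after median scaling and 347 after quantile scaling. The call was kept by 328 in the value table, 301 with normexp and quantile scaling and 341 with probe averages. Only the 5 genes turned by averaging reversed. Without a floor on dim signals, an alternative chosen after seeing the data, all 372 kept it by construction. The floor can only shrink a difference, so its removal cannot undo a call and says nothing on how firm the calls are. Of the 39 list medians, 27 with normexp and quantile scaling and 35 in the value table moved by less than the scanner error of their typical member allows, as did 19 of 38 at the 75th percentile filter. That error covers the spot measurement of single genes, so a move within it does not show that a list median is stable. Counts of lower members fell to 5, against 9, for retinal neurons and to 7, against 11, for midbrain, hindbrain and spinal cord with normexp and quantile scaling. Higher retinoic acid genes fell to 3, against 5, there and in the value table, and lower germline genes numbered 8, against 5, after quantile scaling and in the value table. No paired analysis was possible because each group had 1 array and the labels give no replicate numbers. Weak signals limit what can be read: 5395 genes were detected on 1 array only.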
